A study of Mus musculus with 18 samples.

Results

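RNA held in the ribonucleoprotein (RNP) fraction of round spermatids was compared with RNA held in the same fraction of pachytene spermatocytes. The members were chosen by their labels alone, as the 3 round RNP and the 3 pachytene RNP libraries, 6 of the 18 libraries of the series. All mice were adult, wild type and of strain C57BL/6, and the labels name testis as the source and spell the later cell type "round soermatid". The study separated cells by sedimentation (STA-PUT) from pooled testes, lysed them with cycloheximide present, and took the lightest fractions of a sucrose gradient as RNPs and the heavy ones as polysomes. Enriched cells of this kind still hold other testis cells. The sources do not state which libraries came from the same purification, so p-values measure the spread between these libraries, which may be technical.

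In spermatogenesis, pachytene spermatocytes are the long-lived meiotic cells in which homologous chromosomes recombine, and round spermatids are the haploid cells that follow the meiotic divisions. Because chromatin compaction later stops transcription, spermatids make many mRNAs early and hold them, bound by proteins and free of ribosomes, until they are needed. RNPs are the pool of such messages that are stored or not being translated, while polysomes hold messages under translation. The question here was which messages occupied the RNP pool at each of the 2 stages, and whether their 3′ ends differed.

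The values are FPKM, fragments counted relative to transcript length and to all mapped fragments, that the authors' assembly of each library gave to each transcript. A gene took the sum of the FPKM of its assembled transcripts, matched to the mm9 annotation by strand and a shared splice junction, and libraries were scaled by median ratio. Only spliced transcripts were used, and their share of a library's FPKM ran from 1.16% (pachytene RNP 3) to 7.39% (round RNP 1). A message without a matched spliced transcript in a library stands at 0, which does not show that it was absent. The files hold no read counts, so read depth is unknown. The 6 libraries held between 26773 assembled transcripts (pachytene RNP 3) and 42278 (round RNP 1), and the ratio of coverage to FPKM, which rises with depth and read length, was lowest in pachytene RNP 3 at 1.2 and highest in round RNP 1 at 1.80. Pachytene RNP 3 was therefore the shallowest assembly, with 8444 annotated genes against 10922 to 11622 in the other 5.

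The libraries numbered 2 stood apart from their own groups. Across genes, log2 values of pachytene RNP 2 and round RNP 2 correlated with each other at r = 0.83, above their correlation with libraries of their own group (0.65 and 0.67 for pachytene RNP 2, 0.48 and 0.57 for round RNP 2). Genes are not independent replicates, and these r values describe the libraries. Sertoli cell markers, which belong to the somatic nurse cells of the tubule, summed to scaled FPKM values of 804, 3241 and 733 in pachytene RNPs 1, 2 and 3 and of 116, 2521 and 273 in round RNPs 1, 2 and 3. Clusterin (Clu), an abundant Sertoli product, followed the same order. Sox9, which defines Sertoli cells, was listed at 0 in every compared library except the pair numbered 2.

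Spermatid markers moved the other way. Messages of elongating spermatids, the protamines and transition proteins among them, summed to 3572, 158 and 1900 in the pachytene libraries and to 6630, 158 and 4846 in the round libraries. Round spermatid markers summed to 1693, 531 and 1003 in pachytene RNPs and to 2281, 319 and 2104 in round RNPs. The sums of pachytene markers did not separate the labels and, like those of Sertoli markers, were highest in the library numbered 2 of each stage. They were 814, 1124 and 443 in pachytene RNPs and 543, 1317 and 819 in round RNPs. As single genes, 3 of the 15 were lower in round RNPs with no overlap of the 3 and 3 libraries, against 2.65% of all genes tested. Of the 15, 0 were higher without overlap, against 2.86%. Spermatogonial markers were also highest in the libraries numbered 2, with 116, 267 and 82.2 against 105, 511 and 157. Pachytene RNPs 1 and 3 thus held spermatid messages, and the pair numbered 2 held few of them and many Sertoli messages. Results are therefore given with and without the pair numbered 2. In such bulk samples, fewer cells of a type and less RNA per cell cannot be told apart.

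**Figure D1:**
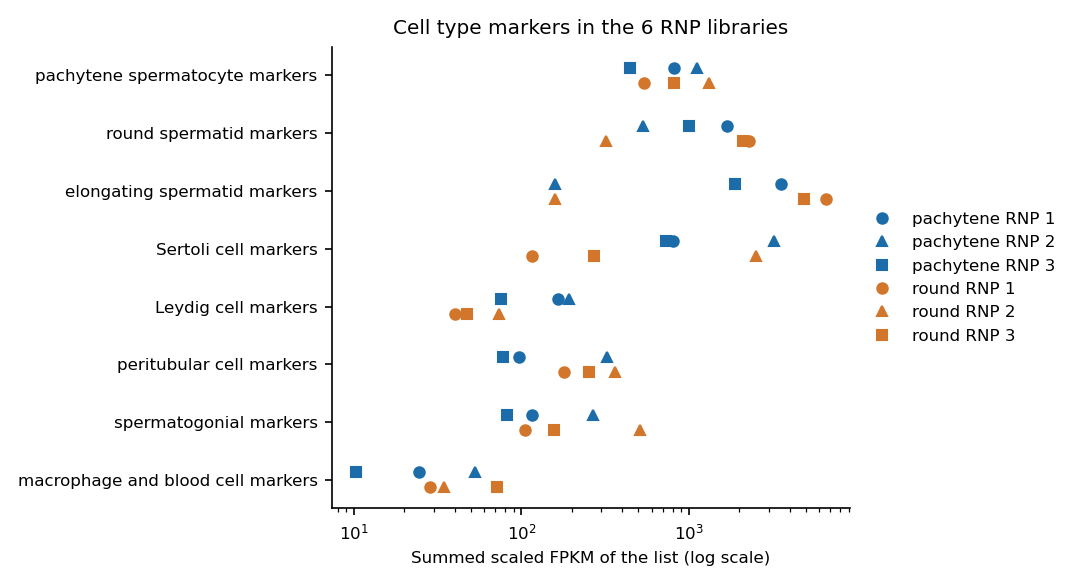
Summed scaled FPKM (log axis) of 8 marker lists in each of the 6 RNP libraries, with a point for each library. The 2 libraries numbered 2 lie above the others for Sertoli markers (3241 and 2521) and below them for elongating spermatid markers (158 in each).

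Between round and pachytene RNPs, no gene was called, that is, passed an adjusted p of 0.05, with the summed FPKM of all 6 libraries. With limma over all 18 libraries, 0 of 14005 genes tested passed in either direction (percent called 0). At an unadjusted p under 0.05, limma put 528 genes higher in round RNPs (3.77%) and 285 lower (2.03%). Without both RNP libraries numbered 2, 11 genes were called higher (0.0785%) and 5 lower (0.0357%). The 3 and 3 libraries did not overlap for 400 genes that were higher in round RNPs (2.86%) and 371 that were lower (2.65%).

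Many of the genes at the top of the higher list were assembled in more and shorter pieces in round RNPs. In all 3 round libraries together, 90 of the 528 higher genes (17.05%) were assembled in more pieces than in any pachytene library, against 1.264% of all genes tested, and 0 of the 285 lower genes were. Among genes assembled in all 6 libraries, the FPKM-weighted mean length of the assembled transcripts had a median log2 change of -0.93 over 132 higher genes, of 0.72 over 179 lower genes and of 0.03 over all 7531 genes. FPKM is a rate per kilobase, so the same fragments spread over shorter pieces give a higher sum of FPKM.

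Hspa4, a cytoplasmic chaperone of the Hsp110 family, was assembled as 1 transcript of 4779, 4440 and 3200 nt in pachytene RNPs 1, 2 and 3, each with the full intron chain of an annotated mRNA. In round RNPs it was assembled as 4 pieces in each library, with a mean length of 1037, 961 and 899 nt and no full intron chain. Its summed FPKM was 63.4, 107 and 40.6 in pachytene RNPs and 290.3, 293 and 321 in round RNPs, so that the groups did not overlap. Weighted by assembled length, its FPKM was 89.3, 153 and 60.2 in pachytene RNPs and 101, 100.4 and 96.2 in round RNPs, which overlap.

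Of the other genes with the smallest p for being higher in round RNPs, Lman2, Stk39, Immt, Ralgps2 and Atad1 were also in more pieces in each round library than in any pachytene library. Rdbp, at 1, 2 and 3 pieces against 3 in each round library, and Prkdc, at 8, 2 and 1 against 11, 4 and 15, were not. Lman2, a cargo receptor of the secretory pathway, had summed FPKM values of 19.9, 18.1 and 13 in pachytene RNPs and 57.5, 73.9 and 55.8 in round RNPs, and it went from 1 piece in each pachytene library to 2 in each round library. Its log2 change was 1.83 by the sum (limma adjusted p = 0.17) and 0.43 weighted by length (adjusted p = 1). Stk39, a kinase that controls ion cotransporters, had a log2 change of 2.10 by the sum and of 0.00 weighted by length. Immt, a scaffold of the mitochondrial inner membrane, had 1.58 and 0.26 on the same 2 scales, and the guanine exchange factor Ralgps2 had 1.89 and -0.44. Atad1, which removes misplaced tail-anchored proteins from mitochondria, went from a log2 change of 3.33 by the sum to 0.97 weighted by length (adjusted p = 0.72), and Rdbp, a subunit of the elongation factor NELF, from 2.24 to 0.79 (adjusted p = 0.62).

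**Figure D2:**
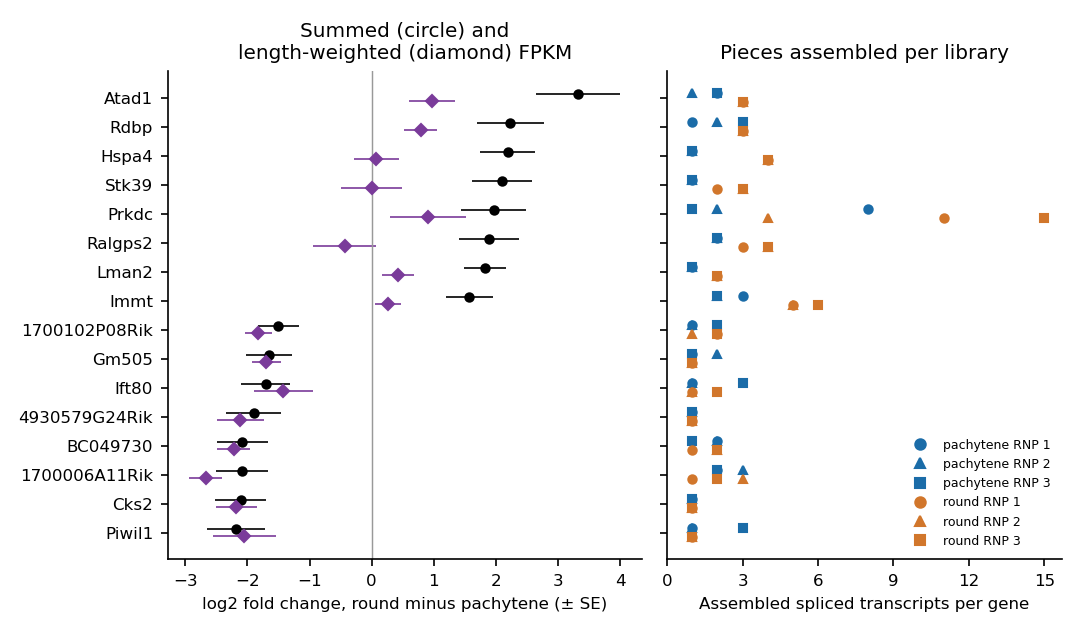
Log2 change with its SE for the 16 genes with the smallest p on the summed FPKM, by the sum (circles) and weighted by assembled length (diamonds), and the number of pieces assembled in each RNP library. Hspa4 moves from 2.19 to 0.08 and Stk39 from 2.10 to 0.00, while the genes lower in round RNPs keep their difference.

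A second value was therefore made for every gene after these data were seen. Each transcript's FPKM was multiplied by its assembled length and divided by the median spliced length of the gene's annotated mRNAs, which makes the value follow fragments rather than pieces. Correlations of log2 values were then higher in every pair of the 6 libraries, between stages as well as within them. They were taken over the genes tested on each scale, 14005 with the sum and 12965 with length weighting. The part of this change of genes in the rise was not tested. The correlations went from 0.77 to 0.91 between pachytene RNPs 1 and 3, from 0.83 to 0.91 between pachytene RNP 1 and round RNP 1, and from 0.48 to 0.53 between round RNPs 1 and 2. All values below are on this length-weighted, scaled FPKM unless the sum is named, and log2 changes are of log2(value + 1), which understates the change of low genes.

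With length weighting, 19 of 12965 genes tested fell from pachytene to round RNPs (limma adjusted p, 0.147%) and 3 rose (0.0231%). At an unadjusted p under 0.05, 298 were lower (2.3%) and 435 higher (3.36%). Without the pair numbered 2, 18 genes fell (0.139%) and 5 rose (0.0386%), of which 13 and 2 were among those called with all 6 libraries. The log2 changes of the 19 lower genes ran from -2.90 to -1.30 without that pair, and the 6 of them not called there were Gm14244, 4933404O12Rik, Lass3, Psma8, Pkd2l1 and Tdrd12. Leaving out pachytene RNP 1 left 6 lower calls, leaving out round RNP 3 left 8, and leaving out round RNP 2 gave 36. For the higher calls, leaving out pachytene RNP 1 or round RNP 3 left 1, and leaving out pachytene RNP 2 or round RNP 2 gave 6 and 11. With the replicate number as a block, in a fit of the 6 compared libraries alone, 0 genes passed in either direction. When libraries were not scaled, 0 passed as well. Each number occurs in both stages, so the block leaves every log2 change as it was and could not turn a direction. The limma adjusted p of the 22 genes was 0.595 with the block. By the summed FPKM 0 of the 19 lower genes were called, and their log2 changes ran from -2.16 to -0.36.

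The genes that fell included messages of proteins with known parts in meiosis and germ cells, and genes with no named function. Cks2 (ENSMUSG00000062248.5, chr13:51740601-51746029, + strand of mm9), a small partner of cyclin-dependent kinases that oocytes and spermatocytes need to leave the meiotic metaphase, stood at 106, 81.5 and 140 in pachytene RNPs and 16.7, 37.8 and 18.5 in round RNPs. Every round library was below every pachytene library, and the highest round value was that of the library numbered 2. The log2 change was -2.18 ± 0.33 (SE, n = 3 and 3, limma adjusted p = 0.011) and -2.73 without the pair numbered 2 (adjusted p = 0.0027). Its summed FPKM moved the same way, from 92.5, 75.9 and 121 to 13.5, 36.0 and 19.3.

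Psma8, the α subunit of the proteasome form made in spermatocytes, was 83.4, 85.1 and 75.8 in pachytene RNPs and 19.6, 27.8 and 22.8 in round RNPs. The spread within each group was small beside the distance between them, with means of 81.5 ± 4.94 and 23.4 ± 4.14 (SD, n = 3 each). The log2 change was -1.77 ± 0.30 (adjusted p = 0.026), and the adjusted p was 0.071 without the pair numbered 2. Of 38 proteasome genes tested it was the only one called, and 18 of the 38 had a log2 change above 0.

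Tdrd12, a Tudor domain protein needed to make secondary piRNAs, was 60.7, 119 and 55.3 in pachytene RNPs and 18.3, 22.6 and 28.5 in round RNPs. Its log2 change was -1.65 ± 0.29 (adjusted p = 0.033), and -1.30 without the pair numbered 2 (adjusted p = 0.096). By the summed FPKM it was -0.36 (adjusted p = 0.98). The pachytene value of the library numbered 2 was the highest of all, and the groups did not overlap with or without it. Gmcl1, the mouse homologue of the germ cell-less protein of the nuclear envelope, was 169, 107 and 141 in pachytene RNPs and 46.1, 40.0 and 47.6 in round RNPs, a log2 change of -1.60 ± 0.22 (adjusted p = 0.0048). Mllt10, a partner of the histone methyltransferase Dot1l, was 400, 441 and 270 against 85.0, 150.4 and 106, a log2 change of -1.70 ± 0.29 (adjusted p = 0.026). It had the highest level of the 19.

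Mgll, Lass3 and Chst1 are enzymes, given here as single genes and not tested as a set. Mgll, which splits monoacylglycerols, was 82.4, 37.4 and 78.6 in pachytene RNPs and 15.7, 7.30 and 9.60 in round RNPs, a log2 change of -2.48 ± 0.38 (adjusted p = 0.011). Lass3, the ceramide synthase that makes the very long-chain sphingolipids of germ cells, was 59.4, 75.1 and 31.1 against 10.5, 17.1 and 11, a log2 change of -1.96 ± 0.36 (adjusted p = 0.045, and 0.095 without the pair numbered 2). Chst1, a sulfotransferase of keratan sulfate, was 7.31, 6.04 and 7.80 in pachytene RNPs and was listed at 0, 0 and 0.50 in round RNPs (adjusted p = 0.0015). Neither Mgll nor Lass3 nor Chst1 had a round library above a pachytene library.

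Several of the 19 carry only systematic names. The change with the smallest p was that of 1700006A11Rik (chr3:124103908-124128957, - strand), at 51.6, 44.2 and 43.9 in pachytene RNPs and 6.11, 6.18 and 7.07 in round RNPs, a log2 change of -2.67 ± 0.27 (adjusted p = 0.00067). BC049730 was 52.6, 35.4 and 59.2 against 7.54, 9.22 and 12.2 (log2 change -2.23, adjusted p = 0.0019), and 1700102P08Rik was 92.4, 74.3 and 77.0 against 20.2, 24.9 and 21.5 (log2 change -1.82, adjusted p = 0.0018). Lrrc61, a leucine-rich repeat protein, was 16.5, 11.1 and 17.2 against 1.40, 2.35 and 1.69 (log2 change -2.50, adjusted p = 0.0015), and its change by the summed FPKM was -0.67 (adjusted p = 0.96). These 4 genes, with Chst1 and Pnmal1, were the 6 lower genes that stayed called whichever of the 6 libraries was left out. Gm505, which fell from 223, 177 and 146 to 59.5, 47.2 and 58.0, was called in 5 of those 6 fits.

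The remaining lower calls were 2 noncoding and 3 protein-coding genes. Gm14244, annotated as a processed transcript, had the lowest log2 change of the 19, at -2.84, with 35.9, 35.7 and 29.0 in pachytene RNPs and 5.29, 2.75 and 3.71 in round RNPs. The lincRNA 4933404O12Rik went from 6.14, 5.83 and 10.3 to 0.80, 0.57 and 0.60, a log2 change of -2.31 against -0.74 by the summed FPKM. Pkd2l1, a cation channel of the polycystin family, did not exceed 4.39 in any compared library. 4930579G24Rik and 2410022L05Rik stood at means of 21.1 and 61.7 in pachytene RNPs and 4.65 and 22.0 in round RNPs, with log2 changes of -2.12 and -1.41 (adjusted p = 0.036 and 0.043).

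**Figure D3:**
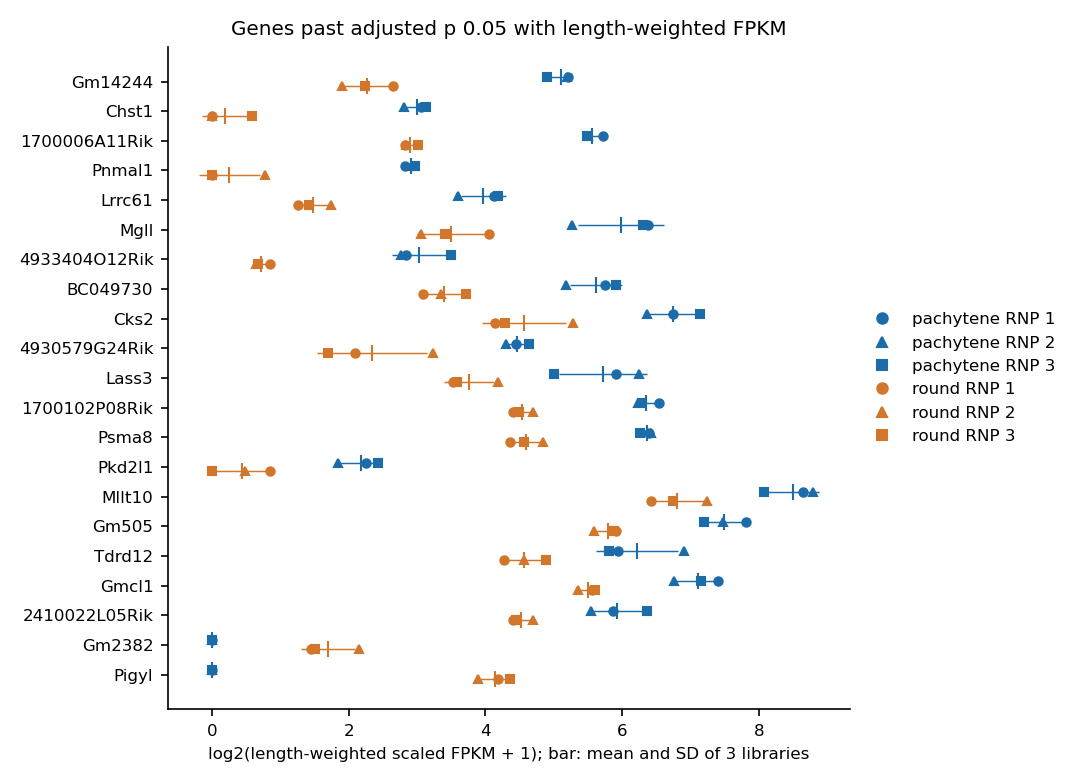
Log2(length-weighted scaled FPKM + 1) of the 19 lower genes and 2 of the higher genes in each RNP library, with bars for the mean and SD of 3 libraries. For the 19 lower genes every round point lies below every pachytene point, as for 1700006A11Rik, at 43.9 to 51.6 FPKM in pachytene and 6.11 to 7.07 in round RNPs.

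The same genes were lower in round polysomes as well. All 19 genes had a negative log2 change from pachytene to round in the polysome libraries, which are other libraries than those compared here, and 18 of the 19 were called there (38 of 12965 genes were, 0.293%). The exception was Pkd2l1 (adjusted p = 0.13). With the replicate block, in a fit of only the polysome libraries of the 2 stages, 0 genes were called in either direction, so that all 18 calls were lost. On the summed FPKM, such a fit without the block also called 0 genes, against 3 higher and 11 lower with all 18 libraries. The parts of the block and of the fewer libraries in this loss were not told apart. In a test of the difference between the 2 fractions' changes, 0 of the 19 were called, and these differences ran from -0.54 to 0.81 on the log2 scale. Polysome values of Cks2, for example, were 134, 152 and 93.4 in pachytene spermatocytes and 15.4, 26.4 and 18.4 in round spermatids. All 19 were lower in each of the 3 elongating RNP libraries than in any pachytene RNP library, with Cks2 at 12.5, 9.80 and 8.46 there. Whether RNP and polysome libraries of a stage came from the same cells is not stated.

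Genes past an unadjusted p of 0.05 in RNPs mostly had a polysome change of the same sign. Of the 435 genes higher in round RNPs at an unadjusted p under 0.05, 92.41% had a positive polysome change, and of the 298 lower genes 2.013% had one, against 55.18% of all genes. With the summed FPKM these shares were 74.24%, 22.11% and 53.26%. No gene's RNP change differed from its polysome change with length weighting (limma, 0 of 12965, 0%, with 76 higher, 0.586%, and 35 lower, 0.27%, at an unadjusted p under 0.05), and 1 of 14005 did with the sum (0.00714%).

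That gene was AY358078 (chr14:52419721-52446034, + strand). Its summed FPKM in RNPs was 13.6, 13.7 and 19.8 in pachytene spermatocytes and 6.50, 7.80 and 6.76 in round spermatids. In polysomes it was 1103, 350.2 and 1268 in pachytene spermatocytes and 5.12, 5.91 and 6.01 in round spermatids. The log2 change was -1.04 in RNPs and -6.89 in polysomes, a difference of 5.85 ± 0.62 (adjusted p = 0.00093, and 0.086 with the replicate block). With length weighting the polysome values were 61.5, 26.9 and 52.0 against 1.83, 1.13 and 2.14, and the difference was 3.24 (adjusted p = 0.12).

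Of the 3 genes called higher in round RNPs, 2 are described here. Pigyl, a gene of the GPI anchor pathway, was listed at 0 in all 3 pachytene RNP libraries and was 17.2, 13.8 and 19.7 in round RNPs, and it was called in 1 of the 6 fits that left out a library. In pachytene polysomes it was 18.1, 20.5 and 8.20, so it was assembled in that stage. Gm2382, a predicted coding gene, was 1.73, 3.44 and 1.84 in round RNPs and was listed at 0 in the other 15 of the 18 libraries. It passed the filter on low values only through the round RNP libraries, so that it had to differ, and its values are a description.

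Gene lists of germ cell functions were described by their counts and medians, beside those of all genes tested (median log2 change 0.11, 58% above 0, and 2.97% higher and 2.56% lower with no overlap of the 3 and 3 libraries). The piRNA pathway and chromatoid body, which guard germ cell genomes and gather RNA in spermatids, had a median of -0.37, or -0.35 without the pair numbered 2. Of 22 members tested, 4 were lower with no overlap and 0 higher, and only Tdrd12 was called. Tdrd1, the Tudor protein that binds Mili, was 39.1, 121 and 28.0 in pachytene RNPs and 5.44, 23 and 8.68 in round RNPs (adjusted p = 0.22). Piwil1 (Miwi), which binds pachytene piRNAs, was 40.0, 150.4 and 20.3 against 10.9, 15.3 and 8.53 (adjusted p = 0.24). Mael and Ddx4 (Vasa), components of nuage, overlapped between the stages, with Mael at 348, 135 and 491 against 497, 146 and 417.

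Meiotic lists held few genes that separated the stages. The 11 synaptonemal complex genes had a median of -0.13 and the 25 recombination genes one of 0.19, with 1 of each list not overlapping, Syce2 being higher and Spo11 lower in round RNPs. Spo11, which makes the breaks that start recombination, was 29.6, 25.4 and 19.6 against 18.4, 12.9 and 15 (adjusted p = 0.79). Sycp3, a core of the chromosome axis, was 112, 138 and 82.3 against 52.4, 173 and 81.5, which overlap. Of 24 cyclins and kinases of the meiotic divisions, 3 were lower without overlap (12.5%, against 2.56% of all genes), and Cks2 was called. Higher without overlap was 1 (4.17%, against 2.97% of all genes), Wee1, an inhibitor of Cdk1. It was 14.3, 18.9 and 11.2 against 25.4, 26.6 and 24 (adjusted p = 0.52).

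Lists of stored spermiogenesis messages were mostly higher in round RNPs for the library pairs 1 and 3, and less so or not for pair 2. None of their genes was called. Elongating spermatid markers had a median log2 difference, round minus pachytene of the same number, of 1.42 in pair 1, -0.05 in pair 2 and 0.96 in pair 3. The same medians for the acrosome list were 0.52, -0.72 and 0.96, and for the sperm tail list 0.52, -1.0 and 0.59. For the nuclear condensation list they were 0.81, 0.31 and 0.97, with 11 of 16 genes above 0 in pair 2. Prm1, the protamine that packs sperm DNA, was 933, 10.5 and 620.3 in pachytene RNPs and 2479, 43.0 and 2489 in round RNPs. Tnp2, a transition protein, was 762, 10.8 and 521 against 2228, 17.3 and 1067. Both were higher in the round library of pair 2 as well. Levels in the pair numbered 2 were far below the others in both stages, and the spread this gave left Prm1 with a log2 change of 1.78 ± 3.02.

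Among acrosome and tail messages, Acrv1 was 70.4, 12.6 and 25.5 in pachytene RNPs and 148, 5.14 and 132 in round RNPs, and Odf1, an outer dense fibre protein, was 132, 6.39 and 101 against 346, 0 and 145. Without the pair numbered 2, all 14 elongating markers and 24 of 27 acrosome genes had a positive log2 change, against 7194 of all 12965 genes. The medians were 1.18 and 0.63, against 0.11 for all genes. That fit left 2 libraries in each group. On the summed FPKM, 0 members of either list passed an adjusted p of 0.05 without the pair. With length weighting, 0 passed in the fit of all 6.

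RNA-binding proteins of message storage had a median of -0.03 over 37 genes. Ybx2 (Msy2), the main coat protein of stored germ cell messages, was 300.2, 143 and 400 in pachytene RNPs and 493, 100.3 and 409 in round RNPs, which overlap. Khdrbs3, a STAR family RNA-binding protein, was 31.1, 31.9 and 28.5 against 20.9, 11.2 and 21.2 (adjusted p = 0.71). Cstf2, the cleavage stimulation factor subunit encoded on the X chromosome, was higher at 22.3, 43.3 and 22.9 against 9.44, 23.9 and 7.96 and the groups overlapped (adjusted p = 0.65).

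Ribosomal protein genes had a median of 0.01 over 80 genes, but 0.06, 0.64 and -0.57 in the 3 pairs, and 71 of the 80 were higher in round RNP 2 than in pachytene RNP 2 while 6 were higher in round RNP 3 than in pachytene RNP 3. Respiratory chain genes had a median of -0.17, with 9 of 35 above 0. Cyct, the cytochrome c of testis, was 108, 66.1 and 97.1 against 52.3, 25.9 and 50.8 (log2 change -1.09, adjusted p = 0.72). Chaperones had a median of 0.08. Hspa2, the chaperone of the synaptonemal complex, was listed at 0, 0 and 61.9 in pachytene RNPs and was 344, 51.2 and 334 in round RNPs (adjusted p = 0.17), and its polysome change had the same sign.

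Markers of somatic cells differed by cell type. Sertoli markers had a median log2 change of -1.05, with 22 of 23 below 0, and -1.48 without the pair numbered 2. Leydig markers, genes of the steroid-making cells between the tubules, had a median of -1.07. With no overlap, 4 of 10 were lower (40%, against 2.56% of all genes) and 1 was higher (10%, against 2.97%). Insl3, a peptide hormone of Leydig cells, was 53.4, 24.9 and 47.6 in pachytene RNPs and 15.1, 20.2 and 15.8 in round RNPs (adjusted p = 0.63), and Cyp17a1, an enzyme of androgen synthesis, was 66.9, 71.2 and 25.4 against 16.3, 13.8 and 22.9 (adjusted p = 0.77). The summed level of the Leydig list was 171, 191 and 95.8 in pachytene RNPs and 42.7, 66.4 and 58.2 in round RNPs. Peritubular markers had a median of 0.97, with 9 of 10 above 0, and macrophage and blood cell markers one of 0.95, with 6 of 10 above 0. Of all genes, 58.05% were above 0. The macrophage and blood list was low, summing to 12.4, 17.1 and 8.01 in pachytene RNPs and 9.39, 22.2 and 41.5 in round RNPs. Its pair medians were 0.02, 0.34 and 1.66, and 8 of its 10 genes stood at 0 in pachytene RNP 3. The part of somatic cells in the other differences was not tested.

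**Figure D4:**
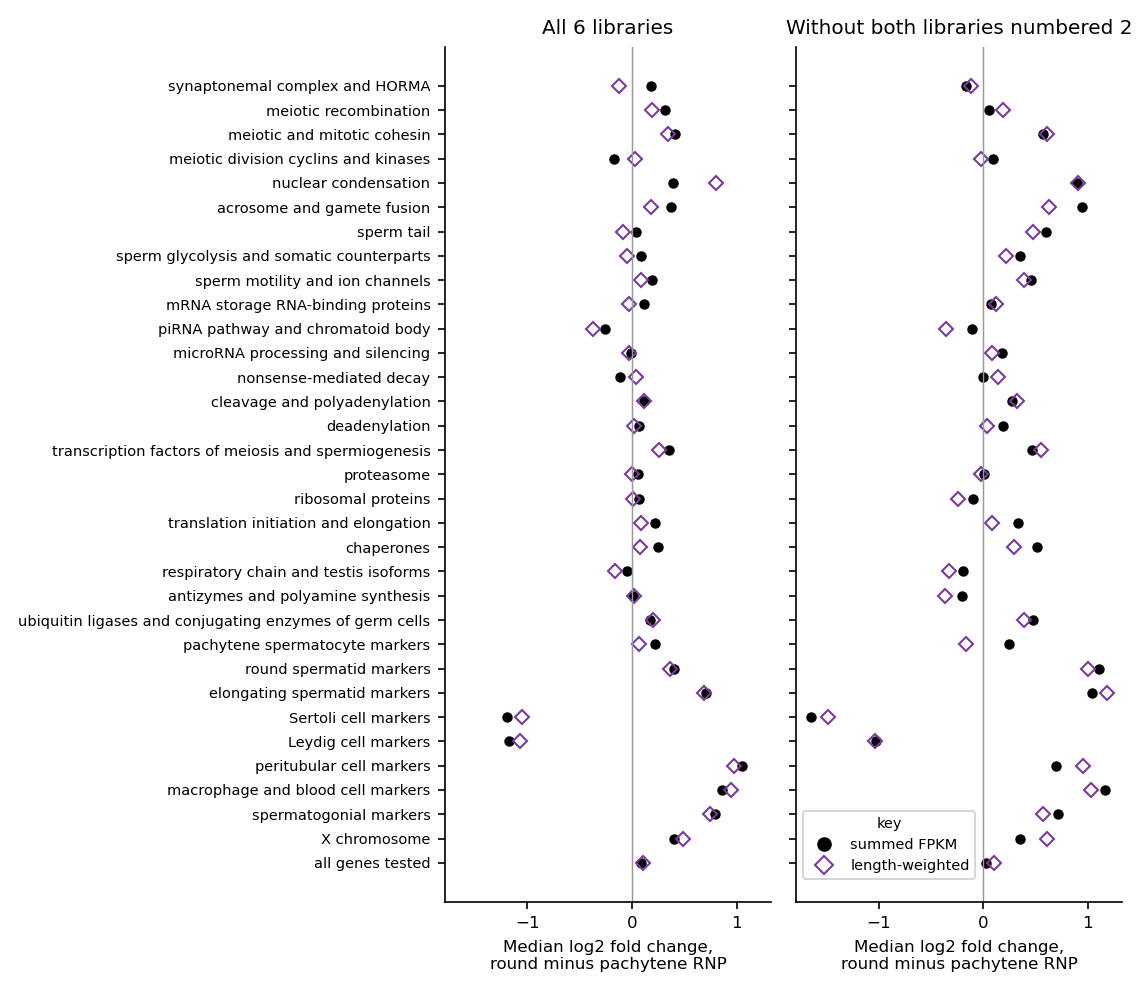
Median log2 change, round minus pachytene RNPs, of each gene list with all 6 libraries (left) and without the pair numbered 2 (right), on the summed (circles) and the length-weighted FPKM (diamonds). Elongating spermatid markers move up without that pair, Sertoli and Leydig markers lie below 0 in both, and all genes lie near 0.11.

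X-linked genes were more often higher in round RNPs than autosomal genes, although none was called and the difference between the 2 sets was not tested. The X chromosome is silenced in pachytene spermatocytes and is in part read again after meiosis. Of 493 X-linked genes tested, 75.05% had a log2 change above 0 against 57.35% of autosomal genes, and their median was 0.48 against 0.10. The 3 and 3 libraries did not overlap for 25 X-linked genes that were higher (5.071%, against 2.881% of autosomal genes) and 1 that was lower (0.2028%, against 2.656%). The medians of the library pairs were 0.09, 0.16 and 0.80, so that pair 3 held most of it. Without the pair numbered 2 the X median was 0.61, with 324 of 493 genes above 0. The autosomal median was then 0.09, with 6862 of 12463 above 0. Without round RNP 2 alone the X median was 0.04, without pachytene RNP 3 it was 0.17 and without pachytene RNP 2 alone it was 0.84. The autosomal medians of these 3 fits were 0, 0 and 0.20. By the summed FPKM, 49.7% of X-linked and 49.6% of autosomal genes were above 0 without round RNP 2. These shares were 51.2% and 48.9% without pachytene RNP 3, and 73.7% and 55.2% without pachytene RNP 2. With 0 given to genes without a matched spliced transcript, 317 of the 493 stood at 0 in pachytene RNP 3, against 87 to 165 in the other 5.

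Prdx4, a peroxiredoxin of the secretory pathway, had the smallest p among X-linked genes. It was 39.6, 47.0 and 27.1 in pachytene RNPs and 84.3, 128 and 90.4 in round RNPs, with no overlap. The log2 change was 1.40 ± 0.28 (adjusted p = 0.075), and 1.39 without the pair numbered 2. In polysomes Prdx4 was 43.7, 40.7 and 69.1 against 129, 186 and 130.4. Emd, the inner nuclear membrane protein emerin, was 3.26, 5.22 and 4.99 in pachytene RNPs and 11.9, 25.2 and 9.90 in round RNPs (adjusted p = 0.29). 1700013H16Rik was 9.56, 9.15 and 9.81 against 19.08, 37.2 and 24.5 (adjusted p = 0.22), and Upf3b, a factor of nonsense-mediated decay, was listed at 2.20, 2.89 and 0 against 5.44, 9.0 and 5.51 (adjusted p = 0.31). Each of these 4 genes also had a positive polysome change, from 1.02 for Upf3b to 1.60 for 1700013H16Rik. The X-linked gene that was lower without overlap was the pseudogene Gm3880, at 6.10, 12.2 and 29.9 in pachytene RNPs and listed at 0 in all 3 round RNP libraries (adjusted p = 0.083, the second smallest of the X-linked genes without overlap).

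The mean annotated 3′ UTR length of genes in the RNP pool differed by less than the spread between libraries. It takes the median annotated length of each gene, so it cannot show a change of 3′ end within a gene. The mean annotated 3′ UTR, weighted by summed FPKM, was 762, 891 and 801 nt in pachytene RNPs and 765, 889 and 773 nt in round RNPs. The group means were 818 ± 66.2 and 809 ± 69.7 nt (SD, n = 3 each). The difference was -9.23 nt (exact permutation test, two-sided, p = 0.9, where the smallest p for 3 against 3 is 0.1). Its sign turned when pachytene RNP 2 (27.4 nt), round RNP 1 (12.99 nt) or round RNP 3 (8.70 nt) was left out. The libraries numbered 2 had the longest mean in both stages. The FPKM-weighted mean distance from stop codon to assembled 3′ end was 601, 799 and 412 nt in pachytene RNPs. In round RNPs it was 507, 693 and 483 nt, a difference of -43.3 nt (exact permutation test, p = 0.7).

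The assembled 3′ ends of single genes were compared as well, and 1 gene was called. For 5377 genes, it was measured in all 6 libraries how far past the annotated stop codon the assembly ran, as an FPKM-weighted mean over transcripts. limma on log2 distance called 1 gene with a farther end in round RNPs (0.0186%) and 0 with a nearer one (0%, with 52 and 48 at an unadjusted p under 0.05). The 3 and 3 libraries did not overlap for 235 genes with farther ends (4.37%) and 119 with nearer ends (2.21%). Assembled ends depend on coverage, and the median distance was 363 nt in pachytene RNP 3 against 482 to 611 nt in the others. Without pachytene RNP 3, 4 genes were called with farther and 28 with nearer ends.

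The called gene was Sap130, a subunit of the Sin3 histone deacetylase complex. Its end lay 51, 54 and 41 nt past the stop codon in pachytene RNPs and 731, 726 and 733 nt past it in round RNPs (adjusted p = 0.0053). The adjusted p was 0.15 without the pair numbered 2 and 0.75 with the replicate block. In pachytene polysomes the ends of its transcript with the highest FPKM lay at 731, 779 and 53 nt, so the near end was not the only one in that stage. Mrpl46, a mitochondrial ribosomal protein, ended at 106, 93 and 88 nt in pachytene RNPs and at 256, 250 and 269 nt in round RNPs (adjusted p = 0.059). Ciz1, a nuclear protein that takes part in DNA replication, ended at 127, 106 and 122 nt against 233, 229 and 210 nt (adjusted p = 0.16), and Leng1 at 1027, 1049 and 1047 nt against 1344, 1345 and 1406 nt (adjusted p = 0.093).

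Ends nearer to the stop codon in round RNPs were those of Deb1 and Tbpl1 among others. Deb1 ended at 267 nt in all 3 pachytene libraries and at 208, 204 and 197 nt in round RNPs (adjusted p = 0.093). Tbpl1 (TRF2), a TBP-like factor that spermatids need, ended at 1920, 1932 and 1929 nt in pachytene RNPs and at 1375, 1461 and 1312 nt in round RNPs (adjusted p = 0.16). For elongating RNPs and polysomes, only the transcript with the highest FPKM in each library was read. In elongating RNPs Tbpl1 ended nearer still, at 554, 448 and 555 nt. In polysomes it ended at 1929, 1932 and 1932 nt in pachytene spermatocytes and at 1924, 1944 and 1931 nt in round spermatids. The highest transcript thus had the nearer end in round RNP libraries and not in round polysome libraries. Other transcripts in polysomes were not looked at.

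The last 30 bases before these assembled ends are shown for Tbpl1, Deb1, Ciz1 and Mrpl46, to show which of them hold the letters of a poly(A) signal. Each line gives 1 library of a stage, and the pachytene and elongating libraries shown are ones with a match. They are read from mm9, 5′ to 3′ on the strand of the gene, and capitals mark AATAAA or ATTAAA, the 2 hexamers searched for on that strand.
Tbpl1, pachytene RNP 3, chr10:22423693-22423722 (-): attttttatataAATAAAaactgtgaatat
Tbpl1, round RNP 1, chr10:22424247-22424276 (-): gagtctgtgttcagttctgttttcttaaag
Tbpl1, elongating RNP 2, chr10:22425174-22425203 (-): cacaAATAAAagtttggaaaagatctctct
Deb1, pachytene RNP 1, chr9:121622008-121622037 (+): tgatgacatgtAATAAAtgatacacgtccg
Deb1, round RNP 1, chr9:121621949-121621978 (+): ggacctgcgaggacctgaggtgtatgacag
Ciz1, pachytene RNP 1, chr2:32233788-32233817 (+): caaaatccAATAAAgagtcagtagtttggc
Ciz1, round RNP 1, chr2:32233894-32233923 (+): agggaagccaaaatcaggctccctgagatg
Mrpl46, pachytene RNP 1, chr7:85920237-85920266 (-): actcaattcgagaATTAAAtgtgtctgtca
Mrpl46, round RNP 1, chr7:85920087-85920116 (-): acagacctactgggcccaggggaaaaaaag

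Not every library of a stage had the match shown. Within the last 50 bases, a hexamer stood in 3 of 3 pachytene RNP ends of Tbpl1 and of Deb1, in 2 of 3 of Ciz1 and in 1 of 3 of Mrpl46. In round RNPs it stood in 1 of 3 ends of Deb1 and in 0 of 3 of Tbpl1, Ciz1 and Mrpl46. In elongating RNPs it stood in 1 of 3 ends of Tbpl1, the one shown. Leng1 had one in 3 of 3 pachytene and 0 of 3 round ends, and Sap130 in 0 of 3 pachytene and 3 of 3 round ends. Over all 5377 genes, a hexamer stood within the last 50 bases of 49.2% to 55.9% of ends in the 6 libraries, so its absence was common. A match or its absence describes these letters and no more.

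**Figure D5:**
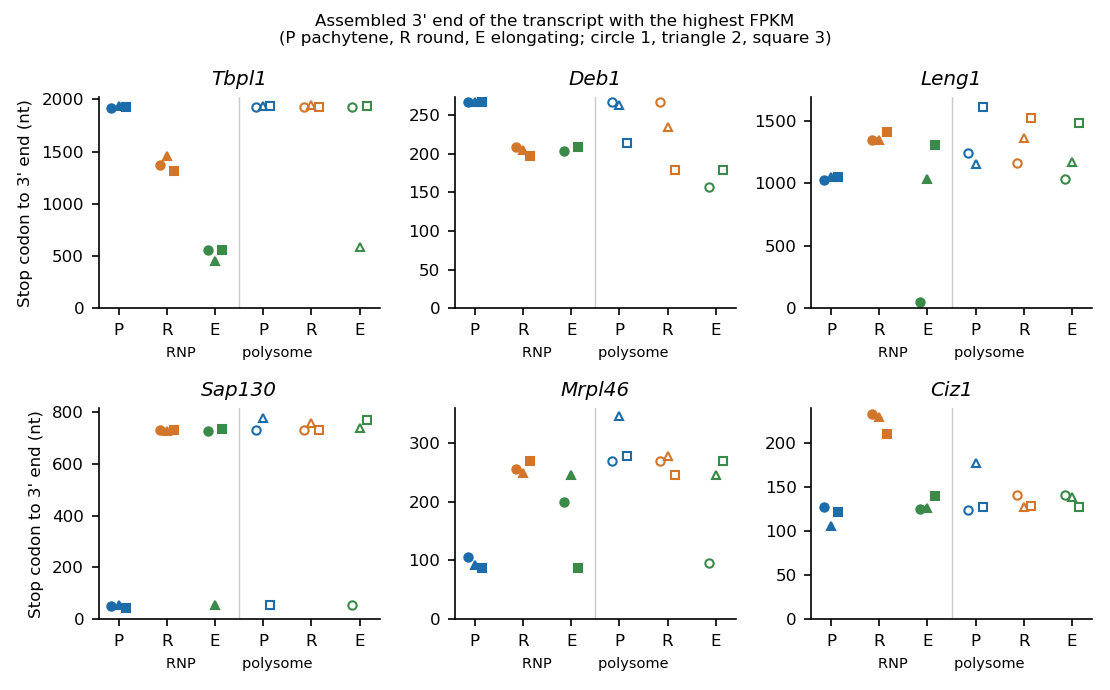
Position of the assembled 3′ end of 6 genes, in nt past the annotated stop codon, in the RNP (filled) and polysome (open) libraries of the 3 stages. Each point is the transcript with the highest FPKM in a library. Tbpl1 ends near 1920 to 1932 nt in pachytene RNPs, at 1312 to 1461 nt in round RNPs and at 1924 to 1944 nt in round polysomes, and Sap130 moves from 41 to 54 nt to 726 to 733 nt.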

How the data were processed

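RNA of 18 libraries was used, 3 for each of 3 stages and 2 fractions, and round was compared with pachytene in RNPs, with the same stages in polysomes beside it. Per the labels, large RNA was isolated with the AquaRNA kit and stranded libraries were sequenced, and the authors trimmed reads, aligned them to mm9 with TopHat and assembled each library alone with Cufflinks (versions not given in the sources used here). The deposited values are FPKM per assembled transcript, without scaling between libraries. Which libraries were read as single or paired ends is not stated.

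Spliced transcripts were matched to GENCODE (mouse release 1) by strand and a shared splice junction, summed per gene and scaled by median ratio. Genes that reached an FPKM of 1 in 3 or more libraries were tested with limma 3.58.1 (R 4.3.3, trend) on log2(FPKM + 1), in 1 model with 6 groups, with Benjamini-Hochberg adjustment and a threshold of 0.05. Tests are two-sided. Python 3.11.15, numpy 2.4.6, pandas 2.3.3 and matplotlib 3.10.9 did the rest. FPKM weighted by assembled length was added after the data were seen. Scripts were tested on simulated data. Read depth is unknown, so precision comes from the spread between replicates, and no counting interval is given.

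Replicate numbers are shared between the stages in the labels. The deviations of same-numbered RNP libraries from their group means correlated at 0.41, 0.62 and 0.14, all above 0.1. Those of unlike number correlated at 0.27 (pachytene 1 and round 3), at 0.21 (pachytene 3 and round 1), and negatively otherwise. The main fits hold no pairing. The numbers were treated as pairs only in the fits with the replicate block and in differences given by pair. The members and gene lists were chosen with earlier results of these data known. Genes were named by p among genes without overlap, by level in each list, and, for 3′ ends, by p and not by size of shift, a change made after values were seen. Named besides were genes called with length-weighted values (the result of 1 is not reported here) and, chosen after their values were seen, some list members and X-linked genes. Other scalings, pseudocounts, filters, ways of matching and fits without single libraries were tried.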

Additional observations from a re-analysis of the deposited data

Results flagged for a closer look

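AY358078 was the only gene whose change from pachytene to round differed between RNPs and polysomes by a test of the difference itself, on the summed FPKM. The difference, RNP change minus polysome change, was 5.85 on the log2 scale (limma adjusted p = 0.00093), and it was positive in all 18 settings that gave a value. Its adjusted p was 0.086 with the replicate block, and with length-weighted FPKM the difference was 3.24 (adjusted p = 0.12). The value rests on the pachytene polysome libraries, at 1103, 350.2 and 1268 in summed FPKM, which length weighting put at 61.5, 26.9 and 52.0.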

How the results depend on the processing

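With the summed FPKM of all 6 libraries, no gene was called higher or lower with no scaling, quantile normalization, a filter at FPKM 5, only the compared libraries or the replicate block. Counts of higher and lower genes were 3 and 0 with a pseudocount of 0.1, 1 and 0 with no filter, 5 and 8 when whole intron chains had to match, 1 and 1 with single-exon genes added, and 122 and 70 with array weights, whose estimation stopped before it converged. They were 11 and 5 without both RNP libraries numbered 2, 16 and 7 without all 4 numbered 2, 1 and 1 without the RNP pair and without scaling, 0 and 2 without that pair after quantile normalization, and 3 and 19 with length weighting. Leaving out each RNP library in turn gave 0 to 11 higher and 0 to 9 lower genes, both highest without round RNP 2.

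Of the length-weighted calls, 3 higher and 19 lower, 5 and 18 were found without the pair numbered 2, 0 and 0 with the replicate block, 0 and 0 without scaling and 1 and 17 after quantile normalization. Leaving out each library in turn gave 1 to 11 higher and 6 to 36 lower genes.

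Polysome calls numbered 14, and 25 without scaling, 28 with a pseudocount of 0.1, 27 with no filter, 23 with intron chains, 0 with only the compared libraries, 0 with the block, 2528 with array weights, 174 without the 4 libraries numbered 2 and 47 with length weighting, of which 0 were left with the block. Genes whose RNP and polysome changes differed numbered 1, and 2 with no filter, 0 with intron chains, 0 with the block, 53 with array weights, 2 without both RNP libraries numbered 2, 11 without all 4, 0 with length weighting and 1 to 2 leaving out single libraries. X-linked genes called higher numbered 0, and 5 with array weights, 1 without the RNP pair numbered 2, 1 without all 4 and 0 to 1 leaving out single libraries. Shifted 3′ ends numbered 1, and 0 with the block, 0 without the pair numbered 2 and 1 to 32 leaving out single libraries (32 without pachytene RNP 3, 8 without pachytene RNP 1 and 7 without round RNP 1). The difference in mean 3′ UTR length was -9.23 nt, 1.32 nt with weights capped at the 99th percentile, and -49.4 to 27.4 nt leaving out single libraries. It was -16.5 nt with length weighting, -9.97 nt as a geometric mean, -8.13 nt with whole intron chains and -43.3 nt for assembled distances. With the block, and only the compared libraries in each such fit, no call remained in any of these comparisons.

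Matching by whole intron chains turned the sign of the summed log2 change for Lman2 (-4.13), Atad1 (-2.35), Hspa4 (-6.03), Stk39 (-5.61), Rdbp (-4.66), Immt (-3.44), Ralgps2 (-4.74, adjusted p = 0.0022), BC049730 (0.76), Gm505 (0.072), Rpl5 (-1.21) and Eif3b (-3.72), and length weighting turned it for Ralgps2 (-0.44). Such matching drops pieces, by its construction. The other causes were not tested. Read depth is unknown, and pachytene RNP 3, the shallowest assembly, limits what could be seen of low messages.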
